A study of Homo sapiens with 12 samples.

Results

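The genes of the mitochondrial genome are described here in 501Mel cells, an established human melanoma line, over 6 treatments. They were chosen by name alone: all symbols of the count table that begin with MT-, which are 37 of 56638 gene symbols. These are 13 mRNAs for subunits of the respiratory chain and ATP synthase, 2 rRNAs and 22 tRNAs. RNA was taken after 48 h of exposure to the vehicle DMSO, to 1 µM of the BRAF inhibitor vemurafenib (Vem), to 5 µM of resveratrol (RSV), which antagonises the aryl hydrocarbon receptor AhR, to 10 nM of the AhR agonist TCDD, or to RSV+Vem or RSV+TCDD, with 2 libraries per group. For RSV+TCDD the label of the libraries gives 1 nM TCDD, while the treatment protocol gives 10 nM. All groups are the same cell line, no label says whether both libraries of a group came from separate cultures, and the p-values therefore measure the spread between these libraries, which may be technical.

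Human mitochondrial DNA is a small circle that is transcribed on both strands into long precursor RNAs. The heavy-strand precursor holds 12 of the mRNAs and both rRNAs, and the light-strand precursor holds MT-ND6 as its only mRNA. tRNAs lie between most of the other genes, and cutting them out of the precursor releases the mRNAs and rRNAs, most of which then receive a poly(A) tail. The proteins that transcribe, cut, stabilise and degrade these RNAs are encoded in the nucleus and imported.

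By this naming 28 members belong to the heavy strand and 9 to the light strand, namely MT-ND6 and 8 tRNAs. The libraries were made from poly(A)-selected RNA and read at 75 bases per end, and the counts do not separate mature tRNA from uncut precursor. By default, reads that lie in several genes of a strand are left out. Precursor reads over MT-TV, which abuts the rRNA genes on its own strand, would then mostly be lost. Those over MT-TQ, whose neighbours lie on the other strand, would be kept. MT-TN, though light-strand, also lies beside genes of its own strand. How much precursor each tRNA count holds was not tested. The tRNA genes to which the results below return are printed with their anticodon in capitals, 5′ to 3′ on the strand of the tRNA, from the GRCh37 mitochondrial sequence of the GENCODE reference. MT-TT (threonine, chrM:15888-15953, + strand) and MT-TV (valine, chrM:1602-1670, + strand) are heavy-strand tRNAs, and MT-TQ (glutamine, chrM:4329-4400, - strand), MT-TN (asparagine, chrM:5657-5729, - strand) and MT-TC (cysteine, chrM:5761-5826, - strand) are light-strand tRNAs.
MT-TT: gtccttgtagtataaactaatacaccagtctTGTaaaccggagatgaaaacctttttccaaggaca
MT-TV: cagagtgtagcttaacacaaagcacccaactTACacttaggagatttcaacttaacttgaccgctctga
MT-TQ: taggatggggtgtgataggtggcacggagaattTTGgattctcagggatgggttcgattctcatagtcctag
MT-TN: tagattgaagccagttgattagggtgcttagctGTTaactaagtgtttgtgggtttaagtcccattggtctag
MT-TC: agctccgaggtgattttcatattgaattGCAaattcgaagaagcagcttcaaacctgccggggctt
These genes are 66, 69, 72, 73 and 66 bases long, each shorter than 1 read.

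MT-ATP8 and MT-ATP6 share bases on the same strand, which bears on how their counts can be read. The stretch chrM:8512-8587 (+ strand) is printed with the bases that lie in both genes in capitals.
MT-ATP8/MT-ATP6: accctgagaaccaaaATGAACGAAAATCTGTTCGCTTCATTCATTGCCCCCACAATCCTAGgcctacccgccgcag
No counting option for reads that lie in several genes is named in the methods, and such reads are left out by default, so both genes are counted without them. MT-ATP8 counts were between 14.8% and 16.7% of MT-ATP6 counts in the 12 libraries.

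Total counts on genes were between 8378655 and 25076925 per library, and RNA integrity numbers were between 8.6 and 9.7, lowest in the RSV+Vem libraries. Melanocytic marker genes summed to between 11108 and 51552 CPM (counts scaled to library size), whereas keratinocyte markers reached at most 0.112 CPM, leukocyte markers 0.307, endothelial markers 1.38 and fibroblast markers 39.2. In bulk RNA, fewer cells of a type and less RNA per cell cannot be told apart.

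Of the 37 members, 32 passed the filter on low counts and were tested. The other 5, all tRNAs (MT-TD, MT-TK, MT-TR, MT-TS2 and MT-TL2), had at most 13 counts in any library. All 22 tRNA genes together held between 567 and 1723 counts per library, against 754541 to 1766143 on all members, so the tRNA values rest on few reads. Levels below are CPM scaled with TMM factors, which set the bulk of genes equal between libraries, and are given for replicate 1 and replicate 2 in that order. Differences are log2 fold changes with their standard error (SE), and a gene was called where the edgeR quasi-likelihood test gave a Benjamini-Hochberg adjusted p below 0.05 over 16080 genes.

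Per kilobase of gene and in vehicle, the highest levels were those of MT-CO1 (9077 CPM per kb) and MT-CO2 (9058), core subunits of cytochrome c oxidase (complex IV). MT-CO3 followed at 7053 and MT-ND4 at 5910 CPM per kb. MT-ND6 had the lowest level per kilobase of the 13 mRNAs at 397, below MT-ND5 at 824 and MT-ND3 at 1468. The rRNAs were at 4636 (MT-RNR2) and 1099 CPM per kb (MT-RNR1), and poly(A) selection is known to recover rRNAs only in part. The tRNA genes ranged from 0 to 239 CPM per kb, with MT-TL1 highest.

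The share of all gene counts that fell on the 37 members was 5.09% and 6.16% in vehicle. It was 10.7% and 8.99% with Vem, 7.66% and 8.25% with RSV, and 10.0% and 9.01% with RSV+Vem. With TCDD it was 5.28% and 5.94%, and with RSV+TCDD 6.32% and 5.84%. Vem and RSV libraries were all above the vehicle range, and the TCDD libraries were inside it. The mean share with Vem was 9.86% ± 1.2 (SD, n = 2) against 5.63% ± 0.76 in vehicle, and with RSV it was 7.95% ± 0.42. An exact two-sided permutation test of 2 against 2 libraries cannot go below p = 0.333, which was the value for Vem and for RSV. Such a share cannot tell more mitochondrial RNA per cell from less of all other RNA. Per count of the added ERCC control RNAs the ratio to vehicle was 1.23 for Vem and 0.727 for TCDD, where the shares gave 1.75 and 0.997. The paper's methods do not say when or in what amount these controls were added, and libraries started from a fixed mass of total RNA. A ratio per ERCC count therefore need not measure RNA per cell. For RSV+Vem against Vem the ratio per ERCC count was 0.805, but 0.449 without RSV+Vem replicate 1 and 1.16 without RSV+Vem replicate 2.

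**Figure D1:**
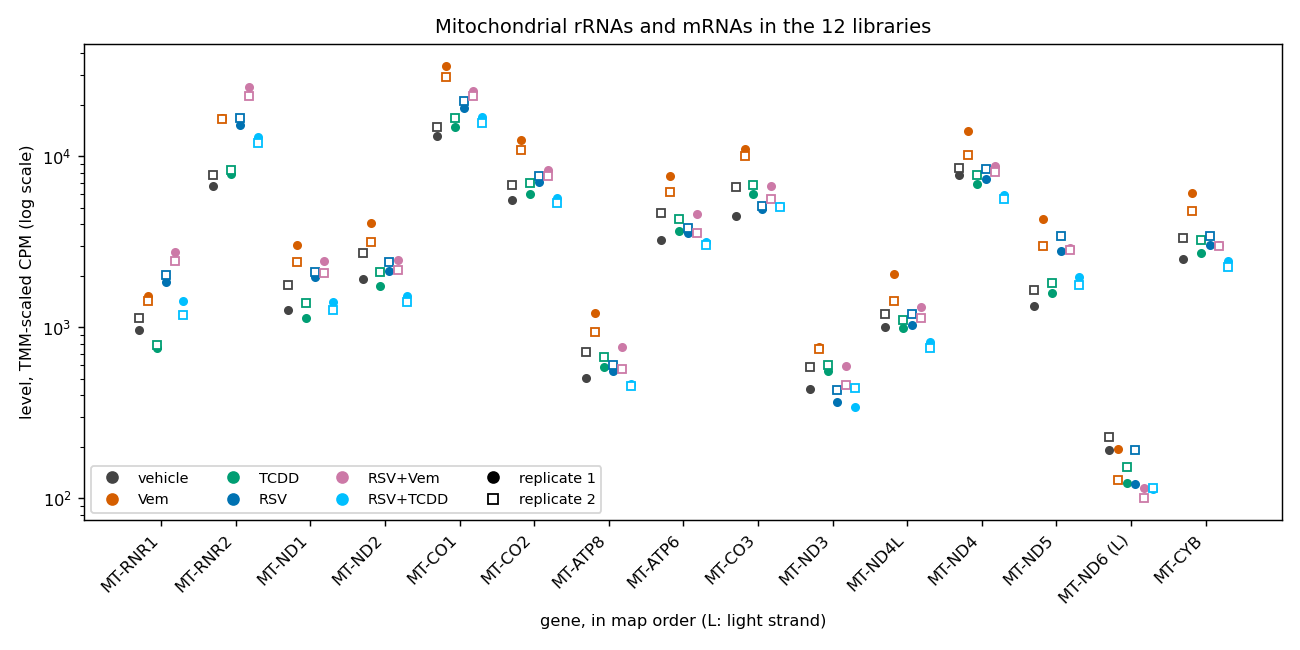
Level of the 2 rRNAs and 13 mRNAs in each of the 12 libraries (vertical axis, TMM-scaled CPM on a log scale; genes in map order; colours mark treatments, filled circles replicate 1 and open squares replicate 2; L marks the light-strand gene). MT-CO1 in the Vem libraries stands at 33856 and 29229 CPM, while MT-ND6 lies between 100 and 226 CPM in all 12 libraries.

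With Vem, 18 of the 32 tested members were higher than in vehicle and none was lower, where 25.5% of all tested genes were higher and 26.9% lower. The 18 were all 12 heavy-strand mRNAs, both rRNAs and 4 heavy-strand tRNAs (MT-TV, MT-TL1, MT-TM and MT-TT). Scaling to the spike-ins left 1 of them called, where 195 of all 16080 genes were higher and 3620 lower. It turned the sign of MT-RNR1, MT-ND2, MT-ND3, MT-ND4L and MT-ND4. The median log2 fold change of the 13 mRNAs was 0.82, beside -0.03 for all genes. With libraries scaled to the spike-ins these medians were 0.17 and -0.68. A change of scaling moves all genes by about the same amount, so it cannot test the gap between these medians. The direction of the mRNAs in absolute terms was not settled.

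Complex I, the NADH dehydrogenase at the entry of the respiratory chain, takes 7 of the 13 mRNAs. MT-ND5, which encodes one of its proton-pumping subunits, was at 1328 and 1659 CPM in vehicle, 4291 and 2988 with Vem, 1590 and 1812 with TCDD, 2786 and 3427 with RSV, 2912 and 2808 with RSV+Vem, and 1962 and 1772 with RSV+TCDD. Both libraries of Vem, RSV and RSV+Vem lay above all 4 vehicle and TCDD libraries. MT-ND5 had the largest increase with Vem of the mRNAs, a log2 fold change of 1.28 (SE 0.17, adjusted p = 5.29e-05).

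Levels of MT-ND1 were 1266 and 1769 CPM in vehicle, 3040 and 2404 with Vem, 1124 and 1393 with TCDD, 1957 and 2106 with RSV, 2443 and 2060 with RSV+Vem, and 1409 and 1256 with RSV+TCDD. Its neighbour MT-ND2 was at 1922 and 2726 CPM in vehicle, 4044 and 3139 with Vem, 1730 and 2107 with TCDD, 2132 and 2389 with RSV, 2462 and 2153 with RSV+Vem, and 1514 and 1411 with RSV+TCDD. Both were highest in Vem replicate 1. The Vem and RSV+Vem libraries overlapped for MT-ND1, while for MT-ND2 the RSV+Vem libraries lay within the vehicle range. The small subunit MT-ND3 was at 433 and 582 CPM in vehicle, 765 and 748 with Vem, 551 and 601 with TCDD, 367 and 430 with RSV, 592 and 458 with RSV+Vem, and 340 and 438 with RSV+TCDD. The increases with Vem were 0.84 for MT-ND1, 0.63 for MT-ND2 and 0.58 for MT-ND3 on the log2 scale. The last pair were no longer called without Vem replicate 1, at adjusted p = 0.0817 and 0.0541, and MT-ND3 also without vehicle replicate 1, at adjusted p = 0.0784.

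MT-ND4L and MT-ND4 are carried on one bicistronic mRNA. MT-ND4 levels were 7810 and 8477 CPM in vehicle, 14124 and 10197 with Vem, 6858 and 7741 with TCDD, 7384 and 8466 with RSV, 8714 and 8068 with RSV+Vem, and 5907 and 5589 with RSV+TCDD. Those of MT-ND4L were 1004 and 1200 CPM in vehicle, 2032 and 1418 with Vem, 987 and 1107 with TCDD, 1026 and 1190 with RSV, 1319 and 1131 with RSV+Vem, and 819 and 756 with RSV+TCDD. Both members of the pair were highest with Vem and lowest with RSV+TCDD, with log2 fold changes of 0.58 and 0.65 for Vem against vehicle.

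Complex III takes 1 mitochondrial gene, MT-CYB for cytochrome b. It was at 2490 and 3324 CPM in vehicle, 6108 and 4808 with Vem, 2704 and 3231 with TCDD, 3042 and 3411 with RSV, 3008 and 2971 with RSV+Vem, and 2435 and 2240 with RSV+TCDD. The Vem libraries stood apart from all others, and the RSV+Vem libraries lay within the vehicle range.

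The 3 mRNAs for complex IV, which passes electrons to oxygen, were all higher with Vem. MT-CO1 levels were 13147 and 14845 CPM in vehicle, 33856 and 29229 with Vem, 14779 and 16735 with TCDD, 19061 and 21019 with RSV, 23947 and 22622 with RSV+Vem, and 16892 and 15644 with RSV+TCDD. MT-CO2, whose product takes up electrons from cytochrome c, was at 5569 and 6821 CPM in vehicle, 12423 and 10864 with Vem, 6035 and 6932 with TCDD, 7027 and 7694 with RSV, 8307 and 7628 with RSV+Vem, and 5722 and 5344 with RSV+TCDD. For MT-CO3 the values were 4456 and 6603 CPM in vehicle, 10992 and 9985 with Vem, 5989 and 6769 with TCDD, 4931 and 5097 with RSV, 6720 and 5633 with RSV+Vem, and 5086 and 5051 with RSV+TCDD. Their log2 fold changes for Vem against vehicle were 1.17, 0.91 and 0.92, and only MT-CO1 of the 3 was also called with RSV.

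ATP synthase takes its subunits a and 8 from MT-ATP6 and MT-ATP8. MT-ATP6 was at 3244 and 4651 CPM in vehicle, 7641 and 6187 with Vem, 3642 and 4284 with TCDD, 3547 and 3821 with RSV, 4605 and 3554 with RSV+Vem, and 3136 and 3026 with RSV+TCDD. MT-ATP8 was at 504 and 716 CPM in vehicle, 1212 and 939 with Vem, 584 and 666 with TCDD, 551 and 600 with RSV, 769 and 570 with RSV+Vem, and 464 and 453 with RSV+TCDD. Their increases with Vem were 0.81 and 0.82. The vehicle libraries differed from each other over the whole set: each of the 13 mRNAs was higher in vehicle replicate 2, by a median factor of 1.33, and each was lower in Vem replicate 2 than in Vem replicate 1, by a median factor of 0.787.

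MT-ND6 encodes a subunit of complex I, is the only light-strand mRNA, and is known for a very short or absent poly(A) tail. It was not called in any comparison in the edgeR fit with TMM scaling, all 12 libraries and robust weights on the spread. Its levels were 191 and 226 CPM in vehicle, 194 and 127 with Vem, 122 and 153 with TCDD, 121 and 191 with RSV, 115 and 100 with RSV+Vem, and 113 and 114 with RSV+TCDD. Vem and vehicle overlapped, with a log2 fold change of -0.38 (SE 0.25, adjusted p = 0.244). Without Vem replicate 1 that value was -0.71 with adjusted p = 0.0364.

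Set against the other mRNAs of the same library, which needs no scaling between libraries, MT-ND6 was lower in all 10 treated libraries than in both vehicle libraries. Per 1000 counts on the 12 heavy-strand mRNAs there were 4.41 and 4.24 MT-ND6 counts in vehicle, 1.93 and 1.53 with Vem, 2.62 and 2.86 with TCDD, 2.25 and 3.19 with RSV, 1.74 and 1.68 with RSV+Vem, and 2.47 and 2.66 with RSV+TCDD. The group means with Vem and with TCDD were 0.400 and 0.633 times the vehicle mean. Each comparison again has a smallest possible exact permutation p of 0.333. In the check of antisense pairs given with the processing, 5.13% of counts fell on the antisense gene. MT-ND6 lies opposite the heavy-strand precursor, and how many of its counts are reads of that RNA given the wrong strand was not tested.

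The 8 light-strand tRNA genes, summed per library, were likewise lower relative to the mRNAs in all 10 treated libraries than in vehicle. Per 100000 heavy-strand mRNA counts they held 84.7 and 68.2 counts in vehicle, 35.6 and 33.1 with Vem, 61.2 and 58.0 with TCDD, 36.7 and 52.9 with RSV, 24.3 and 26.8 with RSV+Vem, and 39.6 and 56.0 with RSV+TCDD. The heavy-strand tRNA genes held 54.2 and 62.4 counts in vehicle, 82.4 and 81.4 with Vem, 60.9 and 65.3 with TCDD, 89.5 and 85.7 with RSV, 82.0 and 80.1 with RSV+Vem, and 75.3 and 89.0 with RSV+TCDD. Vehicle was thus the group with the highest light-strand and the lowest heavy-strand tRNA counts relative to the mRNAs, except that TCDD replicate 1 lay inside the vehicle range for the heavy strand. Of the 8 tested light-strand tRNAs none was called with Vem and their median log2 fold change was -0.22, while 4 of 9 heavy-strand tRNAs were called higher with a median of 1.15. A difference between the strands was not itself tested, and the strand to which these values refer rests on the check of antisense pairs given with the processing. Precursor reads may also be left out of the heavy-strand and the light-strand sums to different degrees, which was not tested.

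**Figure D2:**
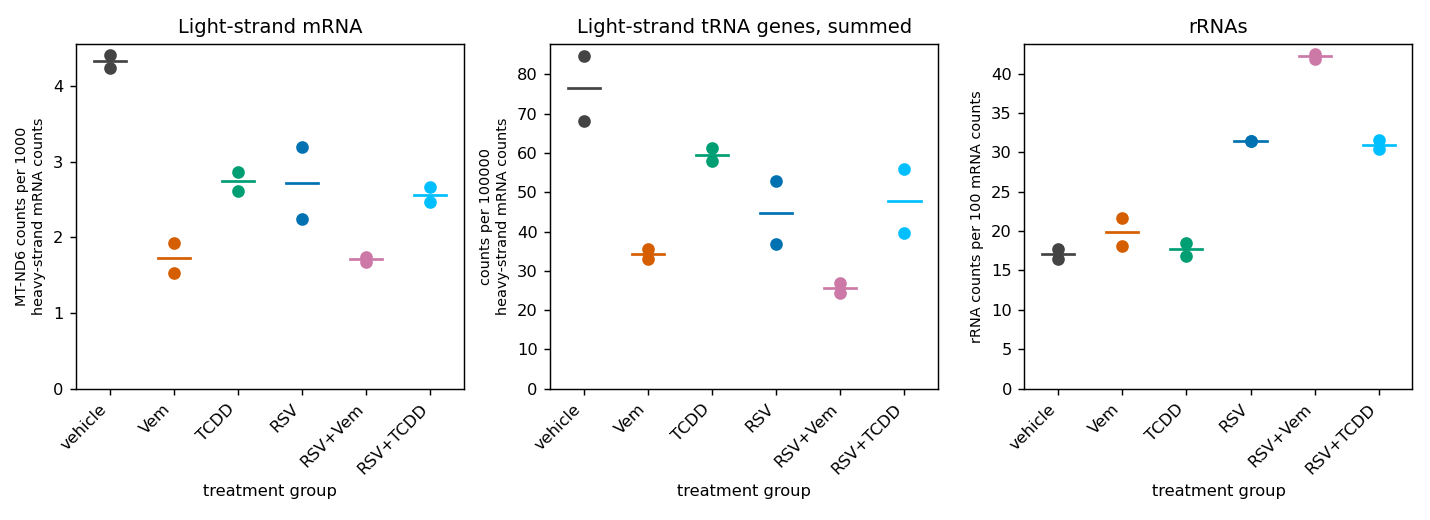
Counts relative to mitochondrial mRNA within each library, for MT-ND6, the summed light-strand tRNA genes and the summed rRNAs (vertical axes as labelled, starting at 0; points are the 2 libraries of each group and lines their mean). MT-ND6 per 1000 heavy-strand mRNA counts was 4.41 and 4.24 in vehicle and at most 3.19 elsewhere, and rRNA counts per 100 mRNA counts were highest with RSV+Vem at 42.5 and 41.9.

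Among single tRNA genes, MT-TT had the largest increase with Vem. It was at 4.15 and 4.49 CPM in vehicle, 21.0 and 19.7 with Vem, 6.72 and 6.32 with TCDD, 12.4 and 12.7 with RSV, 10.1 and 12.3 with RSV+Vem, and 5.73 and 9.80 with RSV+TCDD. Its log2 fold change for Vem against vehicle was 2.23 (SE 0.20, adjusted p = 4.59e-08), and it was the member still called with spike-in scaling, at 1.58 with adjusted p = 0.00856. MT-TV, which lies between the rRNA genes, was at 1.47 and 2.39 CPM in vehicle and 7.09 and 7.30 with Vem. MT-TL1 for leucine and MT-TM for methionine rose by 1.15 and 1.64. The call of MT-TM, with 5 to 28 counts per library, was lost without Vem replicate 1. The tested tRNAs MT-TF, MT-TI, MT-TW, MT-TA, MT-TY, MT-TS1 and MT-TG, with 2 to 98 counts per library, were not called in any comparison made here.

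The rRNAs, structural RNAs of the mitochondrial ribosome, were called higher with Vem and with RSV, though not with spike-in scaling, where MT-RNR1 turned lower with Vem. MT-RNR2, the 16S rRNA, was at 6731 and 7724 CPM in vehicle, 16702 and 16556 with Vem, 7900 and 8254 with TCDD, 15140 and 16771 with RSV, 25223 and 22603 with RSV+Vem, and 13004 and 11958 with RSV+TCDD. MT-RNR1, the 12S rRNA, was at 968 and 1128 CPM in vehicle, 1512 and 1426 with Vem, 759 and 789 with TCDD, 1828 and 2008 with RSV, 2766 and 2428 with RSV+Vem, and 1430 and 1176 with RSV+TCDD. RSV+Vem gave the highest levels of both. For Vem against vehicle the log2 fold change was 1.20 for MT-RNR2 (SE 0.09, adjusted p = 3.85e-09), and for MT-RNR1, the smallest increase of the called members, it was 0.49 and turned to -0.17 with spike-in scaling.

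There were 17.8 and 16.5 rRNA counts per 100 mitochondrial mRNA counts in vehicle, 18.1 and 21.7 with Vem, 18.5 and 16.9 with TCDD, 31.5 and 31.4 with RSV, 42.5 and 41.9 with RSV+Vem, and 31.5 and 30.5 with RSV+TCDD. All 6 libraries with RSV lay above all 6 without it. The RSV+Vem libraries, which stood highest, also had the lowest RNA integrity numbers, 8.7 and 8.6 beside 9.1 to 9.7, and the part of RNA quality in this ratio was not tested. RNR2 counts per RNR1 count were 6.95 and 6.85 in vehicle and between 8.28 and 11.6 in the 10 treated libraries.

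With RSV alone 7 members were higher and 2 lower than in vehicle, where 20.5% of all tested genes were higher and 20.2% lower. The higher ones were both rRNAs, MT-CO1, MT-ND5 and the tRNAs MT-TL1, MT-TH and MT-TT, and the lower ones were the light-strand tRNAs MT-TN and MT-TC. None of these 9 kept its call with spike-in scaling. MT-RNR2 rose by 1.14 (SE 0.09, adjusted p = 5.04e-08), the largest increase of the rRNAs and mRNAs, and MT-ND5 by 1.06 (SE 0.17, adjusted p = 4.53e-04). With spike-in scaling MT-RNR2 was at 0.97 (SE 0.45) and MT-ND5 at 0.87 (SE 0.44), so the SEs were larger there.

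Of the 13 mRNAs 11 were not called with RSV, and the median of the 13 was -0.04, beside 0.00 for all genes. MT-ND6 had the lowest value, -0.42 (SE 0.25, adjusted p = 0.216), and -0.79 with adjusted p = 0.0340 without RSV replicate 2. MT-TN was at 3.29 and 3.76 CPM in vehicle and 1.33 and 1.84 with RSV, a log2 fold change of -1.15 that was called in each fit with 1 library left out. MT-TC, at 5.11 and 7.16 CPM in vehicle and 3.68 and 3.83 with RSV, lost its call without vehicle replicate 2 or RSV replicate 1, with log2 fold changes of -0.44 and -0.69. The calls of MT-TL1 and MT-TH, the latter with 2 to 16 counts per library, were each lost without any of 3 libraries, for MT-TH both vehicle libraries and RSV replicate 2, and for MT-TL1 vehicle replicate 1 and either RSV library.

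Adding RSV to Vem lowered 16 members and raised 2, where 18.7% of all tested genes were lower and 19.1% higher. The members that rose against Vem alone were the rRNAs, MT-RNR1 by 0.82 (SE 0.10, adjusted p = 6.82e-06) and MT-RNR2 by 0.52 (SE 0.09, adjusted p = 1.44e-04). The 10 mRNAs that fell were all heavy-strand mRNAs but MT-ND1 and MT-ND5, and MT-CYB had the largest decrease at -0.87 (SE 0.14, adjusted p = 2.46e-04). The median over the 13 mRNAs was -0.55, beside 0.03 for all genes. None of the 18 calls held with spike-in scaling, where the spike-in share itself was 0.0389% and 0.0903% in the RSV+Vem libraries. The estimates moved little there, with MT-RNR1 at 0.82 (SE 0.43), MT-RNR2 at 0.51 (SE 0.45) and MT-CYB at -0.91 (SE 0.44). Their SEs were larger than with TMM scaling. The median of the 13 mRNAs was then -0.56, beside -0.02 for all genes.

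The 6 tRNAs that fell were MT-TV, MT-TT, MT-TQ, MT-TN, MT-TC and MT-TE, the last 4 of them light-strand. MT-TQ was at 9.46 and 7.99 CPM with Vem and 3.41 and 3.60 with RSV+Vem, a log2 fold change of -1.33. MT-TN, at 3.13 and 3.38 CPM with Vem and 1.06 and 1.24 with RSV+Vem, changed by -1.52, and MT-TC by -1.003. MT-ND6 was not called at -0.58 (SE 0.26, adjusted p = 0.111), and its ratio to the heavy-strand mRNAs was 0.987 times that with Vem. It was called lower without Vem replicate 2, at -0.85 with adjusted p = 0.0210, and without robust weights on the spread, with adjusted p = 0.0285. Without Vem replicate 1 only 8 members were lower and MT-ND2, MT-ND3, MT-ND4L, MT-ND4, MT-ATP6 and MT-ATP8 were no longer called. Without RSV+Vem replicate 2, the library with the fewest gene counts, 10 were, and MT-ND2, MT-ND3, MT-ND4L and MT-ATP8 lost their call. That of MT-TV was lost without any of the 4 libraries, that of MT-TE without each but Vem replicate 2, and that of MT-ND3 also without Vem replicate 2.

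**Figure D3:**
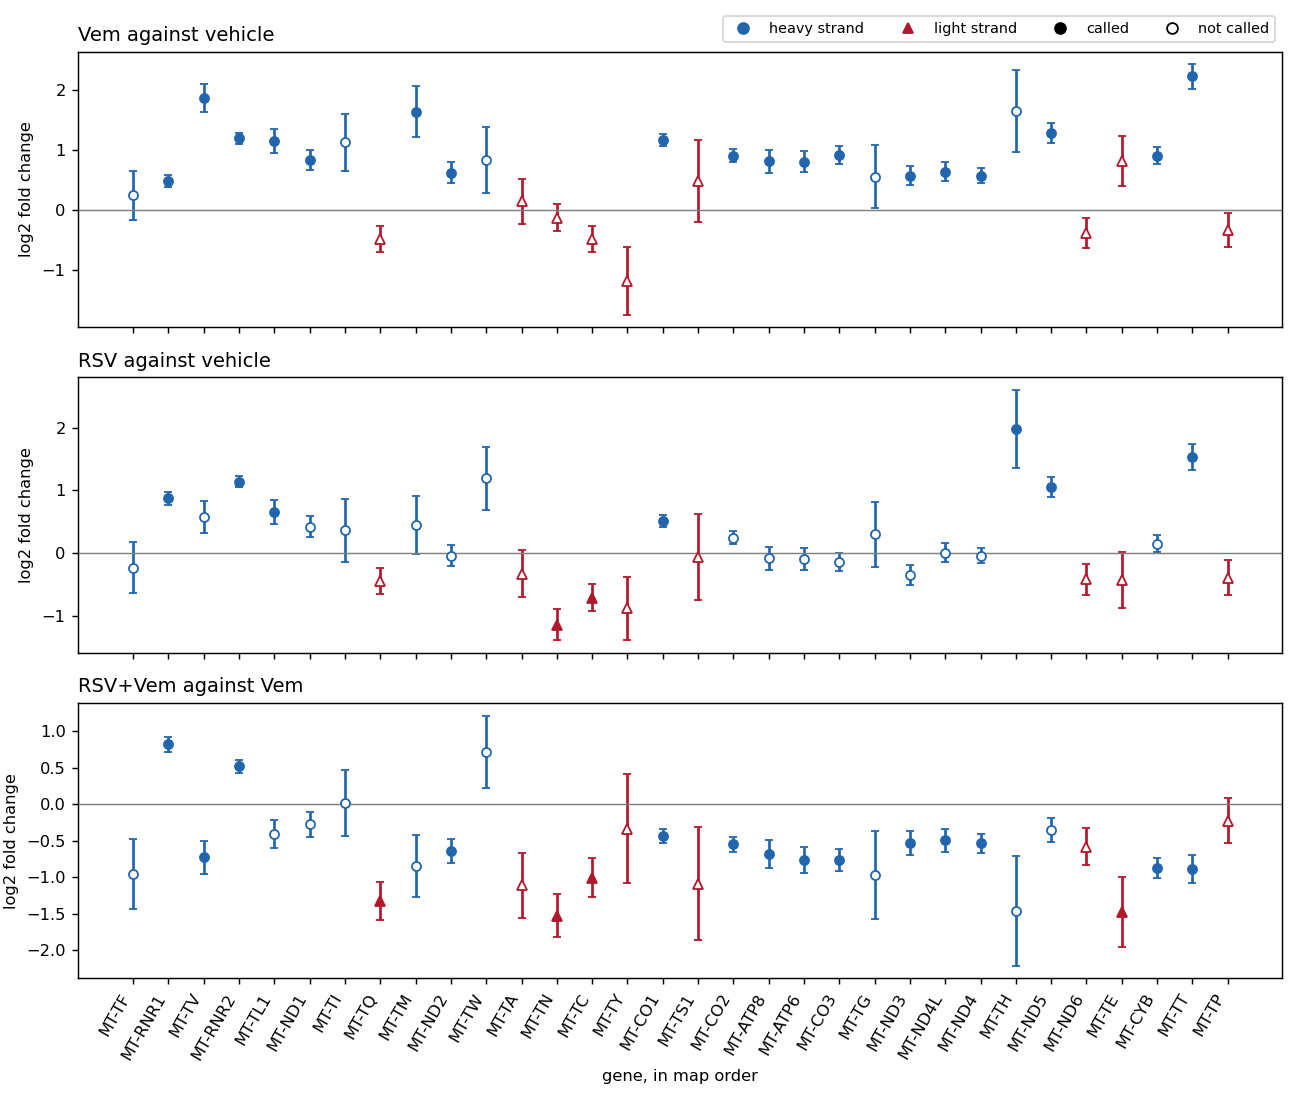
Log2 fold change with SE of the 32 tested members in map order for Vem against vehicle, RSV against vehicle and RSV+Vem against Vem (vertical axes, each with its own range; circles heavy strand, triangles light strand; filled symbols were called at an adjusted p below 0.05 with TMM scaling). In the upper panel the 12 heavy-strand mRNAs are all filled and above 0 and MT-ND6 is open at -0.38, while spike-in scaling turned the sign of MT-RNR1, MT-ND2, MT-ND3, MT-ND4L and MT-ND4; in the lower panel MT-RNR1 and MT-RNR2 are the only filled symbols above 0.

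The effect of Vem was next compared between cells without and with RSV, as the interaction of both drugs. The log2 fold change with Vem was lower in the presence of RSV for 10 members and higher for none, where 10.9% of all tested genes had a lower and 11.8% a higher interaction value. The 10 were MT-ND5, MT-CYB, MT-CO1, MT-CO2, MT-CO3, MT-RNR2 and the tRNAs MT-TV, MT-TL1, MT-TH and MT-TT, and none was called with spike-in scaling. With RSV present the fold changes of MT-ND5, MT-CYB and MT-TT were -0.12, -0.11 and -0.19, and MT-TH, not called with Vem alone, was at -1.78, none of them called. MT-ND5 had the lowest interaction of the mRNAs and rRNAs, -1.40 (SE 0.23, adjusted p = 0.00154), and MT-RNR1 the highest, -0.05 (SE 0.15, adjusted p = 0.845). With spike-in scaling the interaction was -1.25 (SE 0.62) for MT-ND5 and -2.33 (SE 0.67) for MT-TT.

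For MT-RNR2 the interaction was -0.62 (SE 0.13, adjusted p = 0.00180), and for MT-ND6 it was -0.16 (SE 0.36, adjusted p = 0.798). MT-TT had a value of -2.42, as its level was raised from 4.15 and 4.49 to 21.0 and 19.7 CPM by Vem without RSV and was 12.4 and 12.7 against 10.1 and 12.3 CPM with RSV. All 3 complex IV mRNAs were among the 10 and 1 of the 7 complex I mRNAs was, but no complex I value was above 0. The medians were -0.80 for complex IV and -0.50 for complex I. By edgeR 5 of the 7 complex I mRNAs had an unadjusted p below 0.05, where 5688 of the 16080 tested genes had one. DESeq2 called 15 members lower in this interaction, where it called 1770 of all tested genes lower. A difference between the complexes was not tested. MT-CO3 was called at adjusted p = 0.0477 and lost its call in 6 of the 8 fits that left out 1 library, all but those without vehicle replicate 2 and RSV+Vem replicate 1. MT-TL1 lost its call without Vem replicate 1, RSV replicate 1 or RSV+Vem replicate 2, and MT-TH without Vem replicate 1, RSV replicate 2 or RSV+Vem replicate 1. Without vehicle replicate 2 the number called was 16.

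Against RSV alone, RSV+Vem had 2 higher members, MT-RNR1 at 0.44 and MT-RNR2 at 0.58 (SE 0.09, adjusted p = 1.26e-04), where 11.3% of all tested genes were higher; neither was called with spike-in scaling, where MT-RNR1 was at -0.042. Without RSV+Vem replicate 1 the call of MT-RNR1 was lost, at adjusted p = 0.0777. MT-TQ at -1.36 and MT-TC at -0.77 were lower, where 13.4% of all genes were, and the call of MT-TC was lost without any of the 4 libraries. None of the 13 mRNAs was called in this comparison by the edgeR test. It gave 2 of them an unadjusted p below 0.05, where 5966 of the 16080 tested genes had one. The median of the 13 mRNAs was 0.15, or -0.32 with spike-in scaling beside -0.52 for all genes. MT-ND6 had the lowest value of the mRNAs at -0.53 (SE 0.25, adjusted p = 0.168), and was called at -0.82 without RSV replicate 1 (adjusted p = 0.0374).

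**Figure D4:**
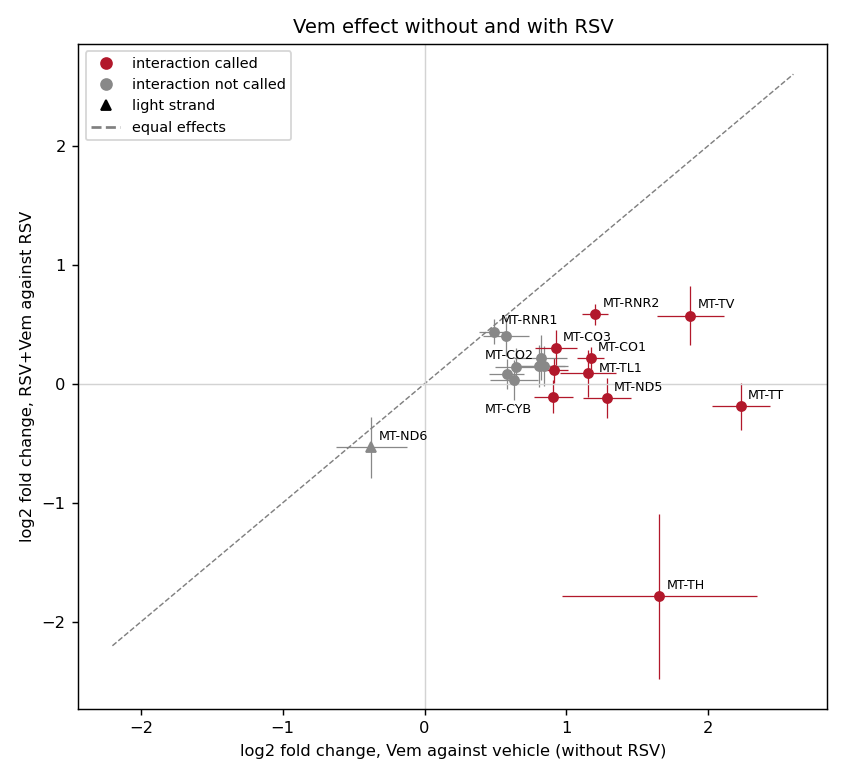
Log2 fold change of Vem without RSV (horizontal axis, Vem against vehicle) and with RSV (vertical axis, RSV+Vem against RSV), with SE bars, for the 15 mRNAs and rRNAs and the tRNAs whose interaction was called (red; grey not called; dashed line, equal effects; TMM scaling). MT-ND5 lies at 1.28 and -0.12 and MT-TT at 2.23 and -0.19, whereas MT-RNR1, which turned to -0.17 without and -0.042 with RSV under spike-in scaling, lies near the dashed line at 0.49 and 0.44.

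With TCDD alone no member was higher and 2 were lower than in vehicle, where 4.72% of all tested genes were higher and 2.01% lower. The edgeR test gave 6 members an unadjusted p below 0.05, where 3463 of the 16080 tested genes had one. DESeq2 also called none higher and gave no adjusted p for 7 members. MT-RNR1 fell by 0.44 (SE 0.10, adjusted p = 0.0152), from 968 and 1128 CPM to 759 and 789. MT-TP, the light-strand tRNA for proline, was at 10.0 and 4.57 CPM in vehicle and 2.93 and 3.46 with TCDD, a log2 fold change of -1.19 with adjusted p = 0.0248. Both calls were lost without either TCDD library, that of MT-RNR1 also without vehicle replicate 2, and that of MT-TP also without vehicle replicate 1, where its value was -0.53. Neither was called with spike-in scaling.

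MT-RNR2 had a log2 fold change of 0.16 with TCDD (SE 0.09, adjusted p = 0.309), and -0.35 with spike-in scaling. MT-CO3 had the largest value of the mRNAs, 0.21 (SE 0.15, adjusted p = 0.457), which was -0.31 with spike-in scaling, -0.05 without vehicle replicate 1, and 0.51 and called higher (adjusted p = 0.0137) without vehicle replicate 2. MT-ND6 had the smallest at -0.61 (SE 0.25, adjusted p = 0.210), and in a fit of only the 4 libraries compared it was called lower at -0.60 (SE 0.12, adjusted p = 0.0203), while MT-TP was not called there (adjusted p = 0.148). The median of the 13 mRNAs was 0.03.

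RSV+TCDD was then set against TCDD alone. In it 2 members were higher and 5 lower, where 18.6% of all tested genes were higher and 19.1% lower. The higher ones were again MT-RNR1 at 0.75 (SE 0.10, adjusted p = 2.86e-05) and MT-RNR2 at 0.63 (SE 0.09, adjusted p = 3.51e-05), which with spike-in scaling were at 0.10 and -0.04 and not called. The lower ones were MT-ND3 at -0.57 (SE 0.16, adjusted p = 0.0161), MT-ND4 at -0.34 and the light-strand tRNAs MT-TQ, MT-TN and MT-TC at -0.73, -0.66 and -0.86. Of these, MT-ND3, MT-TQ and MT-TC were also called with spike-in scaling, where 1752 of all 16080 genes were lower. No lower call was left without TCDD replicate 2 or without RSV+TCDD replicate 1, and 3 were left without either of the other libraries. MT-ND6 was at -0.27 (SE 0.25, adjusted p = 0.443).

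For RSV and TCDD, no interaction was called among the members, where 0.0124% of all tested genes had a higher and 0.137% a lower value. The edgeR test gave 7 members an unadjusted p below 0.05, where 1268 of the 16080 tested genes had one. DESeq2 called 3 members lower and gave no adjusted p for 14 members. MT-RNR2 was at -0.51 (SE 0.13, adjusted p = 0.133), MT-ND5 had the lowest value of the mRNAs at -0.92 (SE 0.23, adjusted p = 0.238), and MT-ND6 the highest at 0.15 (SE 0.35, adjusted p = 0.965). Against RSV alone, RSV+TCDD had no higher and 6 lower members (MT-RNR1, MT-RNR2, MT-CO2, MT-ND4, MT-ND5 and MT-TT), where 3.89% of all tested genes were higher and 2.28% lower. Of these, MT-ND5 had the lowest log2 fold change, -0.73 (SE 0.17, adjusted p = 0.0260), and MT-RNR2 was at -0.35 (SE 0.09, adjusted p = 0.0239). MT-CO3 had the highest value of the mRNAs, 0.02 (SE 0.15, adjusted p = 0.968), and MT-ND6 was at -0.46 (SE 0.25, adjusted p = 0.355). Only 1 of the 6 lower calls was left without RSV replicate 2, without RSV+TCDD replicate 1 or without RSV+TCDD replicate 2. With spike-in scaling 22 members were lower, MT-ND6 among them (adjusted p = 0.0274), where 6926 of all 16080 genes were lower and 1 higher. The median of the mRNAs was then -1.45 beside -1.02 for all genes, and MT-CO3 was at -1.003. The spike-in share was 0.0630% and 0.0936% in the RSV+TCDD libraries, and 0.0349% and 0.0413% in the RSV libraries.

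A list of 27 nuclear genes for mitochondrial transcription, RNA processing, RNA stability, RNA decay and DNA copying was read beside the members, and all 27 were tested. Its values are those with TMM scaling and were not read under the alternative settings, spike-in scaling among them. For Vem, spike-in scaling moved the median of all genes from -0.03 to -0.68. With Vem 4 of 27 were higher and 8 lower, where 25.5% of all tested genes were higher and 26.9% lower, with medians of -0.05 for the list and -0.03 for all genes. FASTK, a mitochondrial protein needed for MT-ND6 mRNA, rose by 1.07 (SE 0.11, adjusted p = 2.55e-07) and REXO2, which degrades short mitochondrial RNA fragments, by 0.56. TFAM, which binds the mitochondrial promoters and packages the DNA, fell by 0.92 (SE 0.16, adjusted p = 3.28e-04) and PNPT1, the polynucleotide phosphorylase of the mitochondrial degradosome, by 0.68.

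TFAM was at 117 and 129 CPM in vehicle, 62.2 and 68.0 with Vem, 110 and 91.2 with TCDD, 81.0 and 98.5 with RSV, 73.5 and 92.6 with RSV+Vem, and 69.1 and 98.5 with RSV+TCDD. The lowest TFAM levels were thus in the Vem libraries. With TMM scaling, Vem was also the group with the highest mean level of each heavy-strand mRNA. PNPT1 was at 86.6 and 98.3 CPM in vehicle, 58.9 and 56.6 with Vem, 88.4 and 87.8 with TCDD, 46.3 and 46.5 with RSV, 37.1 and 42.3 with RSV+Vem, and 39.8 and 45.8 with RSV+TCDD. All 6 libraries with RSV were below all others for PNPT1. Whether either gene has a part in the levels of the members was not tested.

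With RSV, 2 genes of the list were higher and 14 lower, where 20.5% of all tested genes were higher and 20.2% lower, and the median of the list was -0.38. MGME1, a nuclease of mitochondrial DNA, rose by 0.41 and POLG, the mitochondrial DNA polymerase, by 0.30, whereas PNPT1 fell by 0.99 (SE 0.11, adjusted p = 1.73e-06) and PRORP, the subunit that cuts the 5′ ends of mitochondrial tRNAs, by 0.84. In RSV+Vem against Vem 1 was higher and 13 were lower, where 19.1% of all tested genes were higher and 18.7% lower. MGME1 was the higher one at 0.66, and among the lower ones were ELAC2, which cuts tRNA 3′ ends, at -0.84 and HSD17B10, a subunit of the 5′ end enzyme, at -0.66. In RSV+TCDD against TCDD none was higher and 11 were lower, where the shares of all genes were 18.6% and 19.1%, with PNPT1 at -1.04 and PRORP at -0.89 lowest. With TCDD alone no gene of the list was called, where 6.73% of all tested genes were. By edgeR 1 had an unadjusted p below 0.05, where 3463 of the 16080 tested genes did.

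The interaction of RSV and Vem was called for 5 of the 27 genes of the list, where it was called for 22.7% of all tested genes. It was higher for TFAM at 0.79 and PNPT1 at 0.45, whose decrease with Vem was smaller with RSV present. Lower values were those of FASTK at -0.72, FASTKD5, which is needed for maturing precursors that lack flanking tRNAs, at -0.67, and REXO2 at -0.54. No gene of the list was called in the interaction of RSV and TCDD, where 0.149% of all tested genes were. None had an unadjusted p below 0.05 by edgeR, where 1268 of the 16080 tested genes did.

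Nuclear DNA holds copies of mitochondrial genes that can take part of their reads. The table lists 188 symbols of such copies, 30 of which had counts, and together they held between 1.49% and 2.59% of the counts on the members. Most fell on MTATP6P1 (157402 counts over the 12 libraries) and MTND2P28 (126503), followed by MTND1P23 (6580). For Vem against vehicle, MTATP6P1 rose by 0.74 and MTND2P28 by 0.64, where MT-ATP6 rose by 0.81 and MT-ND2 by 0.63. Adding the counts of each copy to its gene left the numbers of members called in each direction as they were in the 9 comparisons.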

How the data were processed

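The deposited table holds raw read counts per gene symbol. The authors selected poly(A) RNA with a stranded kit, sequenced 2 ends of 75 bases, aligned with STAR 2.4.0a to hg19 and counted with featureCounts (Subread 1.5.0-p3). The annotation release and the mitochondrial sequence counted are not given in the sources used here, and positions are those of GENCODE on GRCh37. The strand setting that the methods give for counting is not the one usual for this kind of kit, and this was not resolved from the sources. In 753 pairs of a gene and its antisense gene named -AS1, 5.13% of counts fell on the antisense gene, so counts were taken to be on the genes' own strand.

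Control sequences (96, of which 92 ERCC spike-ins) were set aside and genes kept with filterByExpr by group. All 12 libraries entered 1 quasi-likelihood fit with robust spread, a term for each group and TMM factors (edgeR 4.0.16, R 4.3.3). Counts are not corrected for PCR copies. The 13 mRNAs and 2 rRNAs are named with every library's level, tRNAs where they were tested, and per comparison full statistics are given for the largest increase and decrease among mRNAs and rRNAs, MT-ND6 and MT-RNR2. From the nuclear list at most the 2 largest called changes per direction are named; REXO2 in the interaction was chosen after its value was seen. The members and lists were chosen with earlier results of these data known. Alternatives were DESeq2 1.42.0, RLE factors, factors without the members, spike-in scaling, 2 other filters, a replicate block, only the libraries compared, each library left out in turn and, chosen after seeing the data, nuclear copies added, spread without robust weights and all alternatives for the comparisons against RSV. The alternatives were read for the members and not for the nuclear list. On simulated data the edgeR fit was tested for Vem and for TCDD against vehicle, and DESeq2 for Vem against vehicle. The other steps were not tested in this way. Figures were drawn with matplotlib 3.10.9.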

Additional observations from a re-analysis of the deposited data

Results flagged for a closer look

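The members below are listed because the effect of Vem differed between cells without and with RSV by the interaction test of edgeR, at a Benjamini-Hochberg adjusted p below 0.05 over all tested genes. The interaction values on the log2 scale were -1.40 for MT-ND5, -1.02 for MT-CYB, -0.96 for MT-CO1, -0.80 for MT-CO2, -0.62 for MT-CO3 and -0.62 for MT-RNR2. For the tRNA genes they were -2.42 for MT-TT, -1.30 for MT-TV, -1.06 for MT-TL1 and -3.44 for MT-TH, of which MT-TH rests on 2 to 16 counts per library. All 10 values are negative, and 2 of the 32 tested members had a value above 0. Outliers within groups could not be looked for, since each group has 2 libraries.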

How the results depend on the processing

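RLE factors, factors without the members, at least 10 counts in every library and added nuclear copies kept the number of called members in each direction within 1.5 times the reported one in the 9 comparisons. Scaling to the spike-ins did not: it left 1 higher for Vem, no lower for TCDD, none in either direction for RSV and for RSV+Vem against Vem, no higher and 3 lower for RSV+TCDD against TCDD, none for the interaction of RSV and Vem, no higher and 1 lower for RSV+Vem against RSV, and 22 lower for RSV+TCDD against RSV. Over all 16080 genes it called 195 higher and 3620 lower for Vem, 2 and 8 for TCDD, and 256 and 113 for RSV. The numbers were 334 and 55 for RSV+Vem against Vem, and 160 and 1752 for RSV+TCDD against TCDD. For the interaction of RSV and Vem they were 8 and 0. For RSV+Vem against RSV they were 20 and 461, and for RSV+TCDD against RSV 1 and 6926. The median of the mRNAs was then 0.17 for Vem, -0.49 for TCDD, -1.01 for RSV+TCDD against TCDD, -0.84 for the interaction of RSV and TCDD, -0.32 for RSV+Vem against RSV and -1.45 for RSV+TCDD against RSV, beside all-gene medians of -0.68, -0.51, -0.70, -0.52, -0.52 and -1.02. Signs turned for Vem at MT-RNR1 (-0.17), MT-ND2 (-0.023), MT-ND3 (-0.077), MT-ND4L (-0.0034) and MT-ND4 (-0.071), for TCDD at MT-CO3 (-0.31) and MT-RNR2 (-0.35), for RSV+TCDD against TCDD at MT-RNR2 (-0.041), for the interaction of RSV and Vem at MT-RNR1 (0.12) and MT-ND6 (0.038), for that of RSV and TCDD at MT-ND6 (-0.32), for RSV+Vem against RSV at MT-RNR1 (-0.042) and for RSV+TCDD against RSV at MT-CO3 (-1.003). Per spike-in count, the ratios of the share were 1.23 for Vem, 0.727 for TCDD, 1.16 for RSV, 0.805 for RSV+Vem against Vem (0.449 without RSV+Vem replicate 1 and 1.16 without RSV+Vem replicate 2) and 0.622 for RSV+TCDD against TCDD. SEs were also larger with spike-in scaling than with TMM scaling, for example 0.45 for MT-RNR2 in Vem against vehicle. A lost call therefore need not mean a smaller estimate. The cause of these differences between scalings was not tested.

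For Vem, 1 member was lower with no filter on low counts, with the replicate block and with only the libraries compared. The replicate numbers share only a name: differences between replicates correlated above 0.1 in 3 of 15 group pairs and below -0.1 in 1, and with the replicate block the numbers called were 19 higher for Vem and 3 lower for RSV, with no other number moved by over 1.5 times. Lower members in RSV+TCDD against TCDD numbered 9 with no filter, 12 with only the libraries compared and 8 without robust weights. With no filter 4 were lower for RSV and 6 for the interaction of RSV and TCDD, for which DESeq2 gave 3. Lower members in RSV+TCDD against RSV numbered 10 with DESeq2 and with only the libraries compared and 12 with no filter. RSV+Vem against RSV had 1 lower with DESeq2 and with only the libraries compared, and 5 higher with no filter. DESeq2 gave no adjusted p for 14 members in the interaction of RSV and TCDD and for 7 in that of RSV and Vem. The same held for 7 members with TCDD, 8 in RSV+TCDD against RSV and 2 in RSV+Vem against RSV. The share without the rRNAs was 0.822 times as high in RSV+Vem as in Vem.

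With 1 library left out, higher members numbered 0 to 1 for TCDD, and lower ones 0 to 2 for Vem, 0 to 1 for TCDD, 1 to 4 for RSV, 8 to 17 for RSV+Vem against Vem, 0 to 3 for RSV+TCDD against TCDD, 7 to 16 for the interaction of RSV and Vem and 0 to 2 for that of RSV and TCDD. RSV+Vem against RSV had 1 to 3 higher and 1 to 3 lower, and RSV+TCDD against RSV 1 to 5 lower. The MT-ND6 ratio for RSV against vehicle was 0.519 to 0.738. MT-CO3 with TCDD ran from -0.051 to 0.51, the interaction of RSV and Vem from -0.18 to 0.062 for MT-RNR1 and from -0.44 to 0.21 for MT-ND6, that of RSV and TCDD from -0.13 to 0.52 for MT-ND6, and RSV+TCDD against RSV from -0.0020 to 0.043 for MT-CO3. In these fits the lone library of a group is assumed to vary like the others. The tRNA genes are limited by depth.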
